A study of Homo sapiens with 15 samples.

Results

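The comparison set cells that express NICD4, the intracellular domain of the NOTCH4 receptor, against an isogenic empty vector control (EV). It rested on the 3 libraries titled NICD4 and the 3 titled EV, 6 of the 15 libraries of the series, chosen by their titles and column names. The other 9 libraries, 3 each of NICD1, NICD2 and NICD3, carry the corresponding domain of NOTCH1, NOTCH2 or NOTCH3 and entered the fit of the spread and a later comparison. Expression of NICD4 was induced with doxycycline, an antibiotic that switches on tetracycline-controlled promoters. The labels used here give no dose and no duration, and do not say whether EV cells received the drug or whether the 3 libraries of a group came from separate cultures. The p-values therefore measure the spread between these libraries, which may be technical. The cell line field names HCT116, a human colorectal carcinoma line, whereas the column names carry U373, the name of a human astrocytoma line. The source and genotype fields of NICD4 replicate 1 name NICD3, while its title and column name say NICD4. Its log2 levels correlated with those of NICD4 replicates 2 and 3 at 0.9807 and 0.9849 over the tested genes, against 0.9521 to 0.9619 for the NICD3 libraries and 0.9753 for the nearest NICD1 library.

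NOTCH receptors are cleaved at the membrane after a neighbouring cell presents a ligand, and the released intracellular domain enters the nucleus. There it binds the DNA-binding protein RBPJ and a Mastermind-like co-activator, and genes with RBPJ sites, such as those of the HES and HEY repressor families, are transcribed. NOTCH4 is best known from endothelial cells and from mammary tumours of mice, where its truncated form acts as an oncogene. Expression of an intracellular domain alone bypasses ligand and cleavage.

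NOTCH4 was measured at 1.31, 1.51 and 2.15 CPM in the EV libraries and 1.81, 2.22 and 1.95 CPM in the NICD4 libraries, with overlapping groups (limma log2 change 0.28 ± 0.25, adjusted p = 0.3), and its change with the GC trend described below removed was -0.73, then called lower. Whether reads from the introduced NICD4 were assigned to this gene is not given in the sources used here, so the gene did not check the label. EPCAM, the epithelial adhesion molecule that marks colorectal cells, was measured at 144, 155 and 158 CPM in EV and 122, 176 and 155 CPM in NICD4. CPM here means reads per 1000000 of the scaled library size. GFAP, the intermediate filament of astrocytes, was measured at 1.72, 1.297 and 1.88 CPM in EV and 6.87, 2.87 and 3.405 CPM in NICD4. Of the other astrocyte and glioma markers AQP4 had 1 and 0 reads over the 3 libraries of EV and NICD4, OLIG2 had 1 and 0, and FABP7 had none, whereas the glutamate transporter SLC1A3 had 1655 and 603, at means of 20.3 and 16.2 CPM. BCAN, a brain proteoglycan, was at means of 2.88 and 9.54 CPM and ALDH1L1, a folate enzyme, at 1.51 and 6.004 CPM. S100B and PTPRZ1 were lower in NICD4, at means of 0.2165 and 0.1084 CPM and of 0.341 and 0.0736 CPM, and SLC1A2 had 1 and 5 reads. Of the colorectal markers CEACAM5 had 1 and 0 reads, CDX1 0 and 1, CDH17 7 and 0, MUC13 3 and 0, GPA33 1 and 8, TSPAN8 2 and 6 and LGALS4 14 and 11. VIL1 was at means of 0.934 and 1.44 CPM, while CDX2, a colon transcription factor, rose from 17.8 ± 0.904 to 60.8 ± 7.501 CPM. The summed level of the 17 colorectal markers in the file was 2096 to 2673 CPM in EV and 10860 to 15620 CPM in NICD4, that of the 13 astrocyte and glioma markers 55.7 to 58.3 and 64.0 to 87.5 CPM, that of the 10 endothelial markers 22.7 to 24.9 and 7.83 to 9.95 CPM, and that of the 10 immune markers 32.6 to 37.3 and 23.8 to 27.2 CPM. The 4 keratins among the colorectal markers carried most of their sum, with 1919 to 2505 CPM in EV and 10620 to 15410 CPM in NICD4, and the other 13 summed to 168.5 to 180.7 and 204.6 to 246.2 CPM. In RNA from many cells, fewer cells of a type and less RNA per cell cannot be told apart, and the part of these markers in the results below was not tested.

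The libraries held 18246214 to 24484366 reads in EV and 11630195 to 16422913 in NICD4, assigned to 31352 genes. A gene was tested where it had at least 0.548 CPM, which is 10 reads at the median depth, in 3 or more of the 15 libraries, which left 15122 genes. Of these 80.9% were called, that is, had a Benjamini-Hochberg adjusted p below 0.05 in limma's moderated test on log2(scaled reads + 1). NICD4 was higher for 5644 genes (37.3%) and lower for 6591 (43.6%). By at least 2-fold it was higher for 3144 (20.8%) and lower for 3497 (23.1%). The 3 NICD4 libraries lay entirely above the 3 EV libraries for 37.7% of the genes and entirely below for 44%. With calls this frequent, a list of genes stands out by its share and its median, not by having called members. The median log2 change of all tested genes was -0.12. Scaling to the read total alone moved that median by -0.54 to -0.66 and the calls to 3647 higher and 8872 lower, with 356 genes passing from higher to lower. EV libraries lay at -119 to -137 on the first principal component, which held 65.9% of the variance, and all 12 NICD libraries at -6.50 or higher. A difference that NICD4 shares with NICD1, NICD2 and NICD3 cannot be told apart from any other difference between the EV cells and the cells with a NICD construct.

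**Figure D1:**
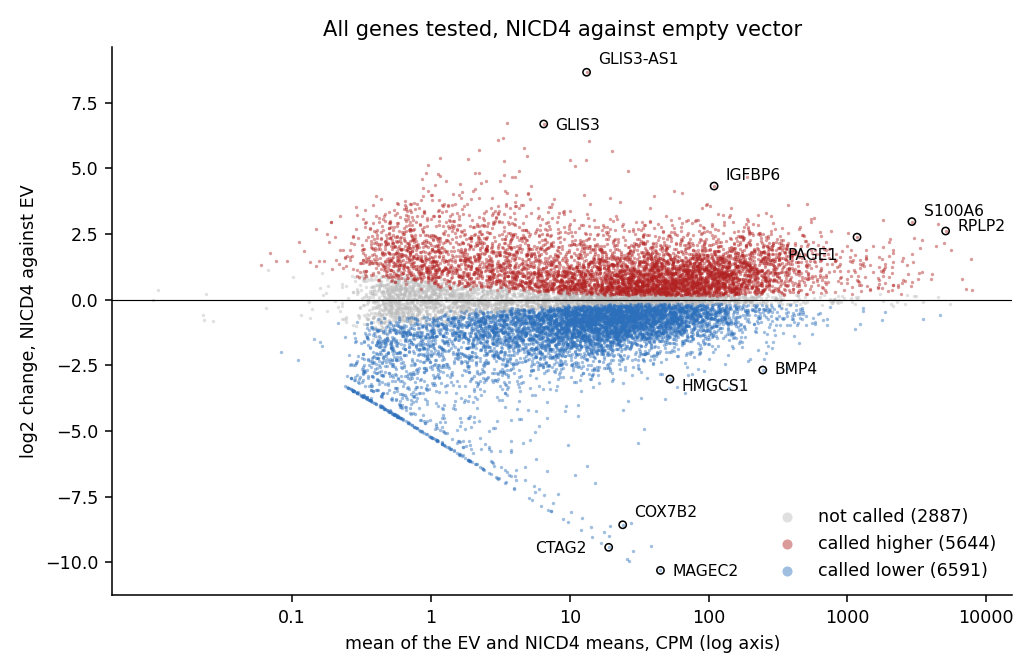
Each point is 1 of the 15122 tested genes, by its mean level in EV and NICD4 (CPM, log axis) and its log2 change; red genes were called higher in NICD4 (5644), blue lower (6591), grey not called. The straight lower edge at the left is formed by genes near 0 reads in NICD4, whose fitted change follows their EV level.

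The size of a change followed the base composition of the transcript. With the genes in 10 equal bins, the bin of lowest GC content (up to 38.7%) had a median log2 change of -0.90, with 8.0% called higher and 79.9% lower. The bin of highest GC content (above 61.8%) had a median of 1.15, with 77.1% called higher and 9.7% lower. All 3 NICD4 libraries showed the gradient, with a median of -1.10, -0.72 and -0.85 in the lowest bin and 1.37, 0.94 and 1.10 in the highest, relative to the EV mean. Genes called higher had a median GC content of 56.2% and those called lower 43.6%. The medians of transcript length were 2652.5 and 4032 bases. In 10 equal bins of length, the bin of shortest transcripts (up to 1185 bases) had a median log2 change of 0.71, with 53.6% called higher and 21.5% lower. The bin of longest transcripts had a median of -0.57, with 20.8% called higher and 60.0% lower. Across 14737 genes with a known transcript the log2 change correlated with GC content at Pearson 0.44 and Spearman 0.51, and with length at Spearman -0.26, given here as a description over genes that share libraries. How much of any change below comes from composition-dependent recovery of RNA was not tested. A second value is therefore given for lists and many genes, the change with a smooth GC trend removed from each library, under which 4953 genes (33.6%) were higher and 6080 (41.3%) lower, and 1957 were higher by at least 2-fold. A gradient with length remained under that setting, with a median of 0.52 in the bin of shortest transcripts and -0.22 in the bin of longest. Its part in the lists below was not tested.

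**Figure D2:**
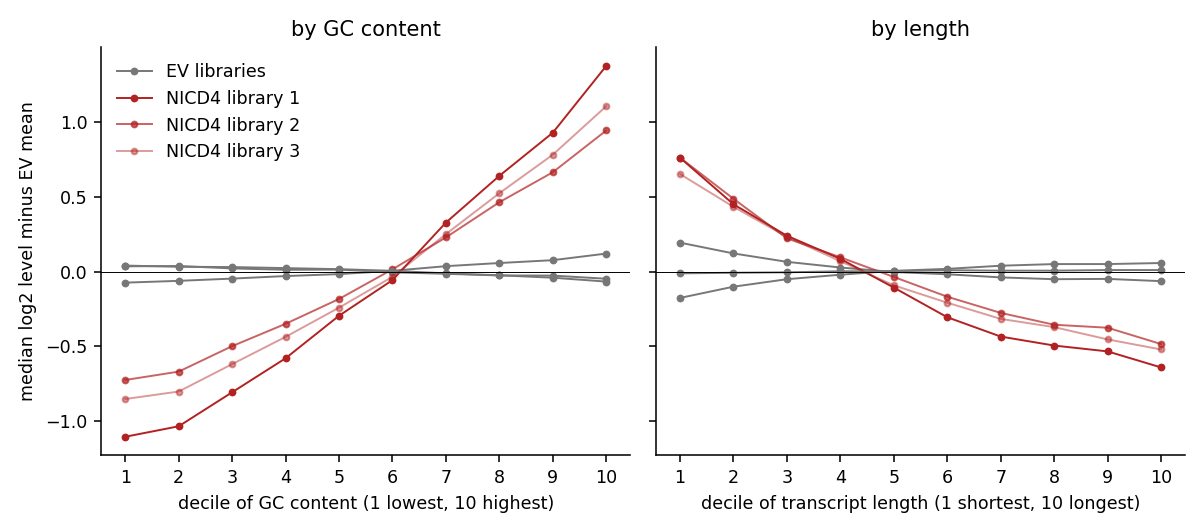
Median log2 level of the genes in each of 10 bins of transcript GC content (left) and transcript length (right), relative to the EV mean, with 1 line per library. The NICD4 lines climb from -0.72 or lower to 0.94 or higher across GC content, and the EV lines of that panel stay between -0.07 and 0.12. In the bin of shortest transcripts EV libraries 1, 2 and 3 lie apart, at 0.19, -0.18 and -0.01, and NICD4 libraries 1, 2 and 3 at 0.76, 0.76 and 0.65.

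The steepest rises beyond NOTCH targets and keratins included both transcripts of the GLIS3 locus. GLIS3, a zinc finger transcription factor of pancreatic, thyroid and kidney development (chr9:3824127-4348392, GRCh37), was measured at 0.0454, 0.0618 and 0.115 CPM in EV and 12.8, 14.3 and 11.6 CPM in NICD4 (limma log2 change 6.69 ± 0.19, adjusted p = 3.4e-12). Its antisense transcript GLIS3-AS1 (chr9:3898642-3901248) went from 1 read over the 3 EV libraries to 31.1, 23.03 and 25.1 CPM, a ratio of 2098-fold (95% exact counting interval 376 to 82930). The library kit named in the labels does not mark strand, so reads of GLIS3 and of its antisense partner cannot be told apart where they overlap. MMP20-AS1, another antisense RNA, was measured at 8.23, 6.07 and 6.91 CPM in NICD4 against 1 read in EV. No NICD4 library overlapped an EV library for any of these transcripts.

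Of the 20 steepest rises among genes with a mean log2 CPM of at least 1, several encode secreted or surface proteins. APOA1, the main protein of high-density lipoprotein, was measured at 0.227, 0.0927 and 0.153 CPM in EV and 14.1, 5.74 and 9.15 CPM in NICD4 (log2 change 5.47 ± 0.36, adjusted p = 1.1e-08). ALPP, the placental alkaline phosphatase, was measured at 0.454, 0.3398 and 0.268 and 35.3, 21.2 and 25.2 CPM in the same order (log2 change 6.05 ± 0.20, adjusted p = 3.1e-11). The groups did not overlap for either gene. PYY, a gut hormone, rose from 0.102 ± 0.0468 to 4.34 ± 1.34 CPM (mean ± SD, n = 3 in each group, as in all such pairs below). PTH2, a neuropeptide, rose from 0.201 ± 0.113 to 6.48 ± 1.69 CPM. FXYD3, a regulator of the sodium pump, rose from 0.465 ± 0.242 to 19.5 ± 4.34 CPM, and LRRN2, a leucine-rich repeat membrane protein, from 0.128 ± 0.0769 to 6.62 ± 1.01 CPM. CR2, the complement receptor of B cells, went from 3 reads over the EV libraries to 1.36, 3.46 and 2.04 CPM, a ratio of 65.2-fold (95% exact counting interval 21.6 to 322).

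Other genes of the 20 act inside the cell. CYB5A, the electron carrier cytochrome b5, had 3 reads in EV and 4.07, 7.89 and 6.13 CPM in NICD4, a ratio of 168-fold (95% exact counting interval 56.6 to 819). RBM47, an RNA-binding protein, rose from 0.566 ± 0.0629 to 21.4 ± 4.71 CPM. COBL, an actin nucleator, rose from 0.2298 ± 0.0483 to 8.4 ± 0.782 CPM, and CABP1, a calcium-binding protein, from 0.126 ± 0.0859 to 9.18 ± 2.31 CPM. PPP1R1A, an inhibitor of protein phosphatase 1, rose from 0.601 ± 0.146 to 25.7 ± 3.62 CPM, and ZFR2, a zinc finger RNA-binding protein, from 0.744 ± 0.102 to 39.8 ± 3.15 CPM. ALPK2, an atypical kinase, had 3 reads in EV and 4.52, 3.92 and 4.87 CPM in NICD4. GRHL2, an epithelial transcription factor, and the keratin gene KRT5 also had 3 reads each in EV, and reached 3.08, 3.92 and 3.89 and 7.42, 6.59 and 5.55 CPM in NICD4. ATP5F1EP2, a processed pseudogene of an ATP synthase subunit whose reads may belong to its parent gene, rose from 1.62 ± 0.178 to 50.9 ± 15.8 CPM. All 20 kept their direction and their call when the GC trend was removed, when the scaling was changed and when any EV or NICD4 library was left out. For all 20 the means of NICD1, NICD2 and NICD3 were above that of EV as well. GLIS3 had means of 9.13, 1.89 and 12.1 CPM there and 12.9 CPM in NICD4. Against the mean of those groups CYB5A, COBL, GRHL2 and CR2 were called lower in NICD4 (-1.20, -0.97, -1.06 and -0.98 in log2). Others, such as GLIS3-AS1 and ATP5F1EP2, were called higher (2.08 and 3.30).

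In all 12 genes had at most 3 reads over the 3 EV libraries and at least 1 CPM in each NICD4 library, and 2 of them had no EV read. GCG, the gene of glucagon and the incretin GLP-1 (chr2:162999392-163008914), is 1 of the 2. It was measured at 2.53, 1.96 and 1.26 CPM in NICD4, at least 51.98-fold higher than the 3-read floor of EV over the group, and had no read in any NICD1, NICD2 or NICD3 library. KRT3 is the other, at 3.08, 1.501 and 2.43 CPM and at least 60.03-fold higher than that floor. HLA-DRA had 2 EV reads and 1.54, 2.61 and 2.53 CPM in NICD4.

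More genes met the converse rule, but the limit was looser there, since 3 reads over a group stand for 0.037 CPM in EV and 0.082 CPM in NICD4. At 0.082 CPM in EV, a limit chosen after seeing the data, 23 genes in place of 12 met the rule for gains. At least 1 CPM in each EV library and at most 3 reads over the 3 NICD4 libraries were found for 181 genes, of which 95 had no NICD4 read. Among the 12166 genes with at least 1 CPM in each EV library, 419 (3.44%) lie on the X chromosome, 25 (0.21%) belong to the cancer-testis list and 344 (2.83%) to the zinc finger list. Among the 181 these counts were 35, 18 and 33, or 19.3%, 9.94% and 18.2%. Both lists were chosen with earlier results of these data known. Of the 181 genes, 158 were also at or below 3 reads in NICD1, 143 in NICD2 and 134 in NICD3, and 118 in all of these groups.

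Cancer-testis genes are normally expressed in germ cells and are switched on in many tumours, often after their promoters lose DNA methylation. Of 49 in the file 32 were tested, 29 (90.6%) fell and 2 (6.2%) rose, beside 43.6% and 37.3% of all genes. The median log2 change was -6.58, or -6.72 with the GC trend removed. With genes at 0 reads in NICD4 set to their bound, the median was -6.26. Against the mean of NICD1 to NICD3 the median of the list was -0.21, with 5 of 32 called higher and 7 lower, beside 27.9% and 30.8% of all genes. The fall was thus largely shared with those groups, where MAGEC2 and MAGEB1 had means of at most 0.0576 and 0.113 CPM. MAGEC2 (chrX:141290131-141293076) was measured at 81.5, 93.3 and 95.03 CPM in EV and had 1 read over the NICD4 libraries, 3323-fold (95% exact counting interval 596 to 131300) lower. MAGEB1, at 49.3, 55.2 and 55.6 CPM in EV, and CTAG2, at 47.98, 31.5 and 34.9 CPM, had no read in NICD4, which is at least 657-fold lower and at least 454-fold lower. MAGEA6, at 31.5, 34.2 and 34.5 CPM in EV, had no NICD4 read either. MAGEC1, PAGE5 and SSX1 fell from 38.2 ± 1.005 to 0.0301 ± 0.0522 CPM, from 57.1 ± 7.93 to 0.0301 ± 0.0522 CPM and from 54.8 ± 2.85 to 0.153 ± 0.187 CPM. GAGE1, GAGE2A, GAGE12H and GAGE12J fell too, but they are near-identical copies whose reads could be split between them, so the single values are uncertain.

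The list was not lost as a whole. PAGE1 was measured at 481, 293 and 365 CPM in the EV libraries and 2426, 1612 and 1857 CPM in the NICD4 libraries (log2 change 2.38 ± 0.21, adjusted p = 1.3e-07), and MAGEB18 rose from 0.2498 ± 0.0494 to 1.16 ± 0.256 CPM. MAGEB2 fell from 144 ± 4.06 to 85.6 ± 11.8 CPM, MAGEA12 from 98.1 ± 2.34 to 74.8 ± 3.93 CPM and MAGEA3 from 72.5 ± 4.75 to 22.7 ± 7.29 CPM, so these stayed well above 0. MAGEA1 fell from 65.9 ± 4.56 to 2.15 ± 0.407 CPM. The summed level of the list, most of it PAGE1 in NICD4, was 1272 to 1529 CPM in EV and 1816 to 2600 CPM in NICD4, although 29 members fell.

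Promoter windows were searched for GTGGGAA, the core letters of the RBPJ site, on both strands. The RefSeq windows, which are on GRCh38.p14 and cover 250 bases before to 50 bases after a transcript start, matched 10999 of 14295 tested symbols. The letters were found in 6.25% of all 35116 windows and 5.78% of the windows of tested genes. They were found in 6.50% of the windows of genes called at least 2-fold higher, 5.58% of those at least 2-fold lower and 6.15% of those of genes not called. Of the 6 windows matched for HES and HEY genes and NRARP 3 held them. In the cancer-testis list 3 of 36 windows held them. The letters CCGGAAG, a core of ETS factor sites that contains a CpG, were in 14.4%, 16.1% and 14.3% of the windows of higher, lower and not called genes, in 16.3% of the windows of tested genes and in 10.3% of all windows. A match describes the letters and is not evidence of binding. The windows below show the match in capitals and the rest in lower case, 5′ to 3′ on the strand of the gene. HES4, a NOTCH target, and PRSS23, a secreted serine protease, were among the steep rises (3.50 and 4.51 in log2), and MAGEC1 and XAGE3, which holds the letters on each strand, among the losses.
HES4 (chr1:1000048-1000347, minus strand): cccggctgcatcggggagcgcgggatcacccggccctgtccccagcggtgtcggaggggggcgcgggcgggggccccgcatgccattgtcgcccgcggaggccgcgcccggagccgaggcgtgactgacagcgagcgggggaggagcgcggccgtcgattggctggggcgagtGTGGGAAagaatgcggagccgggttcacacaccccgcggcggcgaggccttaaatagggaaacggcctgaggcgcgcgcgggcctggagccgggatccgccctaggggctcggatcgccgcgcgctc
PRSS23 (chr11:86790821-86791120, plus strand): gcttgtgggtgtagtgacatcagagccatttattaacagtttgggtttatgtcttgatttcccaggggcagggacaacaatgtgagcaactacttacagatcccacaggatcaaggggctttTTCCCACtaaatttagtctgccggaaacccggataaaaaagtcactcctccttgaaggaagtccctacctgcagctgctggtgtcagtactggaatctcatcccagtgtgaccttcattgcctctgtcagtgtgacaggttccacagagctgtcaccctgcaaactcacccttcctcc
MAGEC1 (chrX:141903644-141903943, plus strand): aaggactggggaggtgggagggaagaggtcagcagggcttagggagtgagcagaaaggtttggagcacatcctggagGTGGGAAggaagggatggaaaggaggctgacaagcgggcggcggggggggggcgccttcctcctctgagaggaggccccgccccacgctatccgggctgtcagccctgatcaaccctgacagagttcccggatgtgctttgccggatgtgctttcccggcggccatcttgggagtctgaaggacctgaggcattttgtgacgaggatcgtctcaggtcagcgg
XAGE3 (chrX:52868034-52868333, minus strand): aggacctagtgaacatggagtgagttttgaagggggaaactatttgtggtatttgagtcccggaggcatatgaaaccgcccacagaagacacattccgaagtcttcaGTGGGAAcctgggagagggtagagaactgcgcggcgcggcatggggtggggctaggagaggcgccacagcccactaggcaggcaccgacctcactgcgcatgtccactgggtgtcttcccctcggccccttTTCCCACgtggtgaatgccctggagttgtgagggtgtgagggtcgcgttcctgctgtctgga
Relative to the start, the first letter of the match lies at -77 in HES4, -128 in PRSS23, -173 in MAGEC1 and -143 and -12 in XAGE3.

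Outside the cancer-testis list, the 20 steepest falls included COX7B2, a testis form of a cytochrome c oxidase subunit, which fell from 48 ± 6.75 to 0.0954 ± 0.09797 CPM. TUSC3, a subunit of the oligosaccharyltransferase, went from 26.4, 29.1 and 29.1 CPM in EV to 1 read in NICD4, 1040-fold (95% exact counting interval 186 to 41110) lower. TENM1, a teneurin of neuronal wiring, had 19.1, 20.5 and 18.5 CPM in EV and no read in NICD4 (at least 238-fold lower). FAM133A had 25.4, 22.02 and 24.6 CPM in EV and no read in any of the 12 NICD libraries. SLC17A8, a vesicular glutamate transporter, TUBA3C, a testis alpha-tubulin, and OVAAL, a long noncoding RNA, fell from 20.5 ± 2.599 to 0.0301 ± 0.0522 CPM, from 24.6 ± 4.03 to 0.0324 ± 0.0562 CPM and from 35.1 ± 3.07 to 0.0324 ± 0.0562 CPM. Another 3 genes were picked after their values were seen. ESR1, the oestrogen receptor, was at 9.704, 10.1 and 10.8 CPM in EV and had no NICD4 read (at least 125-fold lower), TIE1, an endothelial receptor kinase, went from 16.5, 16.6 and 15.98 CPM to 2 reads, 300.5-fold (95% exact counting interval 83.02 to 2484) lower, and DPPA2, a pluripotency factor, from 11.3, 10.5 and 11.9 CPM to 1 read, 409-fold (95% exact counting interval 73.2 to 16170) lower.

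Zinc finger genes, many of which encode DNA-binding repressors of the KRAB class, fell more often than they rose. Of 391 tested 247 (63.2%) fell and 76 (19.4%) rose, beside 43.6% and 37.3% of all genes. The median log2 change was -0.71, or -0.43 with the GC trend removed. ZNF300 had 17.8, 18.9 and 16.6 CPM in EV and no read in NICD4 (at least 218-fold lower), and ZNF239 10.1, 10.9 and 10.96 CPM and no read (at least 131-fold lower). ZNF468 was at 2.99, 5.28 and 4.56 CPM in EV with no NICD4 read. Members that rose included ZNF593, a factor of ribosome assembly, from 1.001 ± 0.188 to 13.6 ± 8.38 CPM, and ZNF703, a co-repressor amplified in breast cancer, from 8.203 ± 0.586 to 67.02 ± 12.2 CPM. Against NICD1 to NICD3 the median of the list was 0.00, with 108 of 391 called higher and 52 lower, beside 27.9% and 30.8% of all genes.

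**Figure D3:**
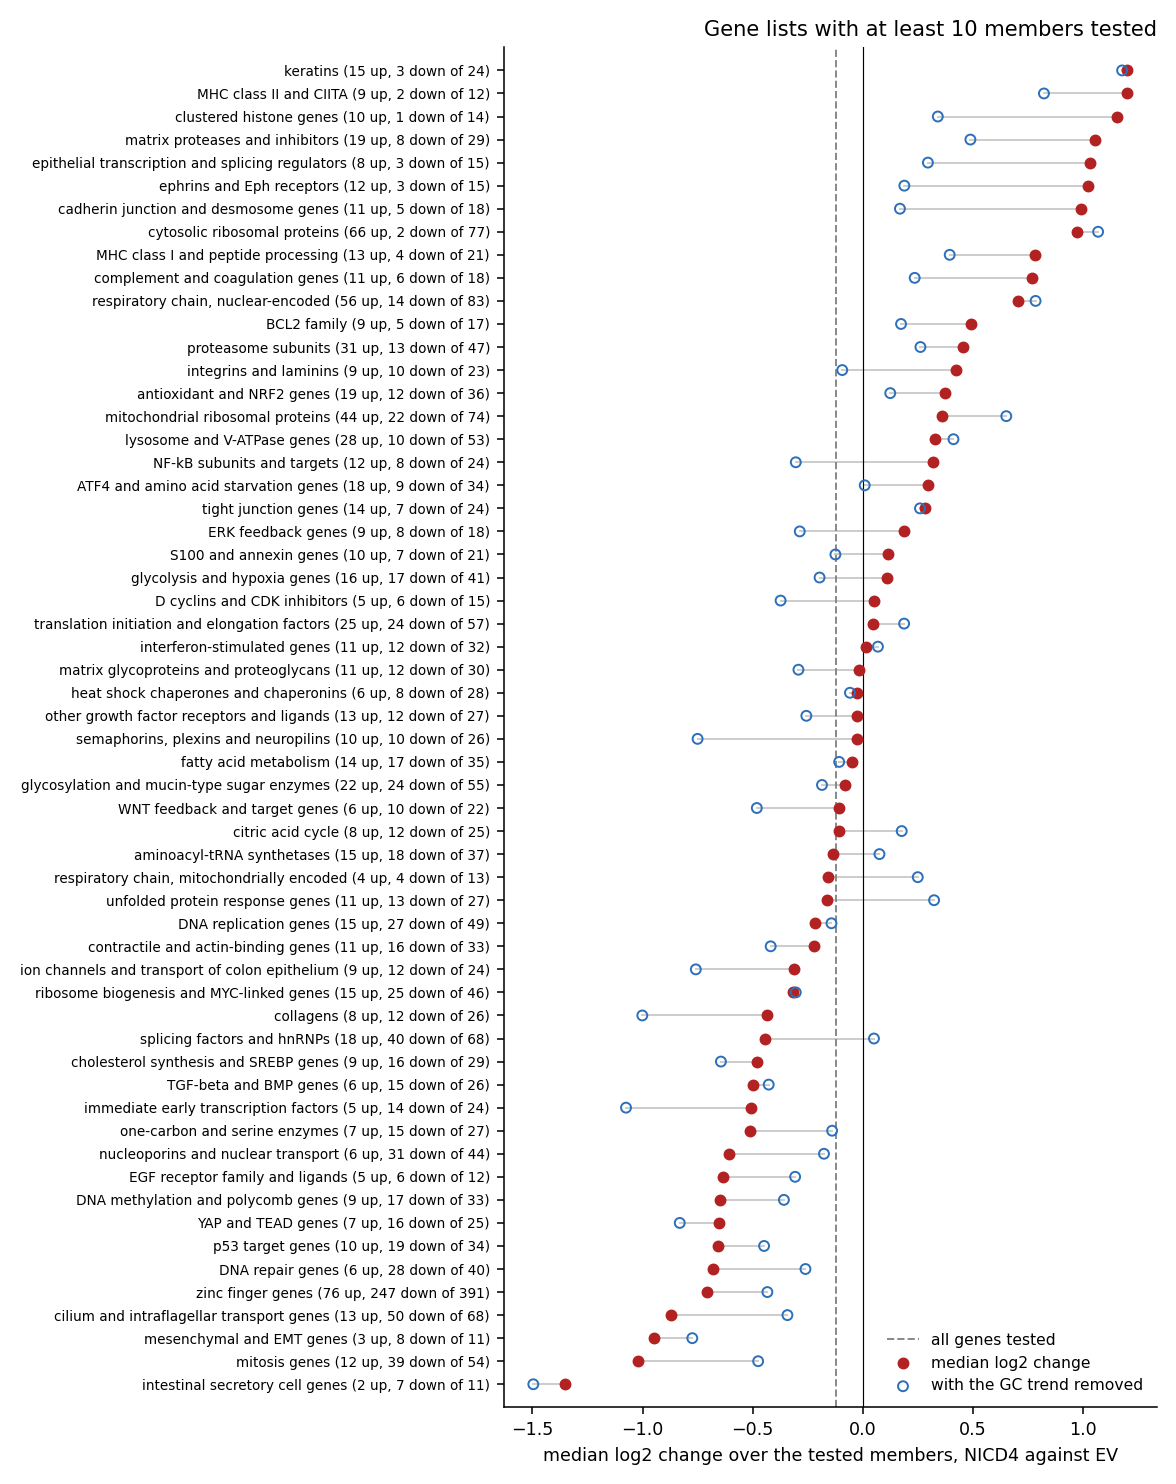
Median log2 change over the tested members of each gene list with at least 10 of them, except the cancer-testis list at -6.58 (filled points), and the same with the GC trend removed (open points); counts beside each name are members called higher and lower, and the dashed line is the median of all genes at -0.12. Cytosolic ribosomal and nuclear-encoded respiratory genes stay to the right under both, whereas ephrins, cadherin junction genes and histones move towards 0. Under scaling to the read total alone, not drawn, the medians of the cytosolic ribosomal and respiratory lists were 0.43 and 0.16. The bin of shortest transcripts over all genes, not drawn, had a median of 0.71, or 0.52 with the GC trend removed.

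Most cytosolic ribosomal proteins and most nuclear-encoded respiratory subunits rose, whereas other genes of protein synthesis were mixed. For translation initiation and elongation factors 25 of 57 tested members rose and 24 fell, with a median of 0.05, and for aminoacyl-tRNA synthetases 15 of 37 tested members rose and 18 fell, with a median of -0.13. For cytosolic ribosomal proteins 66 of 77 tested members rose and 2 fell against a background of 37.3% and 43.6%, and the median log2 change was 0.97, or 1.07 with the GC trend removed. Without NICD4 replicate 1 the counts were 65 and 2. The bin of shortest transcripts over all genes had a median of 0.71, or 0.52 with the GC trend removed. Under scaling to the read total alone 50 rose and 13 fell, with a median of 0.43 beside -0.66 over all genes. RPLP2, a stalk protein of the large subunit, was measured at 1804, 1103 and 1310 CPM in EV and 12160, 5991 and 8197 CPM in NICD4 (log2 change 2.61 ± 0.29, adjusted p = 1e-06). RPS28 rose from 298 ± 74.2 to 1735 ± 451 CPM and RPL36A from 16.1 ± 3.19 to 97.2 ± 22.4 CPM. The members that fell were RPL30, from 763 ± 90.1 to 415 ± 162 CPM, and RPS23, from 689 ± 61.2 to 436 ± 124 CPM. The summed level of the 78 ribosomal proteins was 77180 to 105200 CPM in EV and 180200 to 226700 CPM in NICD4. Many ribosomal proteins have processed pseudogenes that can take up their reads.

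For the nuclear-encoded subunits of the respiratory chain 56 of 83 tested members (67.5%) rose and 14 (16.9%) fell, beside 37.3% and 43.6% of all genes. The median log2 change was 0.71, or 0.79 with the GC trend removed. The bin of shortest transcripts over all genes had a median of 0.71, or 0.52 with that trend removed. In that bin 53.6% of genes rose and 21.5% fell. The part of transcript length in the rise of this list was not tested. Under scaling to the read total alone 41 rose and 27 fell, with a median of 0.16 beside -0.66 over all genes. ATP5F1D, the delta subunit of ATP synthase, was measured at 146, 96.9 and 99.4 CPM in EV and 1322, 695 and 917 CPM in NICD4 (log2 change 3.07 ± 0.27, adjusted p = 1.4e-07). The complex I subunits NDUFA11 and NDUFA13 rose from 39.8 ± 10.8 to 338 ± 116 CPM and from 50.5 ± 12.9 to 333 ± 107 CPM. The groups were apart for all of these. Members that fell included NDUFS1, the iron-sulfur subunit of complex I, from 65.3 ± 11.3 to 26.8 ± 3.47 CPM, and ATP5F1A, the alpha subunit of ATP synthase, from 835 ± 39.5 to 492 ± 92.6 CPM. Of the 13 subunits encoded by mitochondrial DNA 4 rose and 4 fell. MT-ND3 and MT-ND6 rose from 1458 ± 139 to 2249 ± 226 CPM and from 1418 ± 211 to 2587 ± 343 CPM, and MT-CO1 and MT-ATP8 fell from 5581 ± 294 to 3717 ± 614 CPM and from 369 ± 84.2 to 178 ± 26.9 CPM. For mitochondrial ribosomal proteins 44 of 74 tested members (59.5%) rose and 22 (29.7%) fell, and the median log2 change was 0.36, 0.65 with the GC trend removed and -0.18 under scaling to the read total alone. Examples are MRPL23, which rose from 119 ± 31.8 to 777 ± 277 CPM, and MRPL32, which fell from 99.7 ± 0.905 to 36.8 ± 16.6 CPM.

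For ribosome biogenesis and MYC-linked genes 15 of 46 tested members rose and 25 fell, with a median of -0.32 beside -0.12 over all genes. These shares, 32.6% higher and 54.3% lower, stand beside 37.3% and 43.6% of all genes. The nucleolar proteins NPM1 and DDX21 fell from 1538 ± 70.2 to 718 ± 151 CPM and from 167 ± 24.6 to 34.6 ± 6.66 CPM, and MYC, the transcription factor that drives many of them, fell from 179 ± 16.2 to 54.7 ± 16.1 CPM. The rRNA methyltransferase FBL and the assembly factor PPAN rose from 707 ± 141 to 1773 ± 173 CPM and from 9.35 ± 1.95 to 90.0 ± 41.1 CPM. Protein folding and degradation were mixed as well. For proteasome subunits 31 of 47 tested members (66.0%) rose and 13 (27.7%) fell, beside 37.3% and 43.6% of all genes. The median log2 change was 0.46, 0.26 with the GC trend removed and -0.09 under scaling to the read total alone. PSMB1, a core subunit, rose from 506 ± 79.1 to 1231 ± 255 CPM and PSMA6, another, fell from 12.8 ± 3.84 to 0.823 ± 0.323 CPM. For heat shock chaperones and chaperonins 6 of 28 tested members rose and 8 fell. The small heat shock protein HSPB1 was measured at 493, 326 and 363 CPM in EV and 3933, 2720 and 2998 CPM in NICD4, and HSPA1B rose from 57.4 ± 12.6 to 245 ± 24.1 CPM. Of the cytosolic chaperonin TRiC, TCP1 and CCT2 fell from 430.1 ± 53.04 to 147 ± 49.2 CPM and from 585 ± 36.5 to 232 ± 72.3 CPM. PDIA6, an oxidoreductase of the endoplasmic reticulum, fell from 77.4 ± 15.3 to 11.5 ± 5.66 CPM, in a list of unfolded protein response genes of which 11 rose and 13 fell.

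Genes of cell division, DNA repair, nuclear pores and cilia were lower for 72.2%, 70.0%, 70.5% and 73.5% of the tested members, beside 43.6% of all genes. For mitosis genes 12 of 54 tested members rose and 39 fell, and the median log2 change was -1.02, or -0.47 with the GC trend removed. The kinetochore proteins NUF2 and CENPF fell from 48.5 ± 4.34 to 10.3 ± 3.01 CPM and from 134 ± 23.1 to 37.05 ± 9.48 CPM, and the spindle protein ASPM from 35.1 ± 2.43 to 9.67 ± 2.69 CPM. The list was not uniform. MKI67, the proliferation antigen, was measured at 243, 247 and 235 CPM in EV and 630.1, 500.1 and 556 CPM in NICD4 (log2 change 1.21 ± 0.10, adjusted p = 7.7e-08, 1.27 with the GC trend removed). BIRC5, or survivin, rose from 233 ± 18.6 to 643 ± 157 CPM, and CDC20, an activator of the anaphase-promoting complex, from 397 ± 41.1 to 1036 ± 200.1 CPM.

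For DNA repair genes 6 of 40 tested members rose and 28 fell, and the median log2 change was -0.68, or -0.26 with the GC trend removed. The checkpoint kinase ATR fell from 20.9 ± 2.51 to 4.95 ± 1.75 CPM and BRCA2, which acts in homologous recombination, from 4.25 ± 1.87 to 0.683 ± 0.118 CPM. For nucleoporins and transport factors 6 of 44 tested members rose and 31 fell, and the median log2 change was -0.61, or -0.18 with the GC trend removed. NUP107, a scaffold of the pore, fell from 75.4 ± 11.4 to 15.01 ± 5.21 CPM, and TPR, of the nuclear basket, from 120.2 ± 18.6 to 20.4 ± 4.58 CPM. For cilium genes 13 of 68 tested members rose and 50 fell, and the median log2 change was -0.87, or -0.34 with the GC trend removed, with the dynein DYNC2H1 down from 4.33 ± 0.702 to 0.5704 ± 0.402 CPM and the transition zone protein CEP290 down from 14.8 ± 2.44 to 2.03 ± 0.269 CPM. All 4 of these medians lay nearer to 0 with the GC trend removed. Under that setting 34 of 54 mitosis genes, 18 of 40 DNA repair genes, 22 of 44 nucleoporins and transport factors and 35 of 68 cilium genes were lower, beside 41.3% of all genes, and 13, 10, 14 and 16 were higher, beside 33.6%. Splicing factors, of which 18 of 68 rose and 40 fell, had a median of -0.44 that became 0.05. SF3B1, the branch-point binding subunit, fell from 249.7 ± 21.4 to 84.7 ± 14.5 CPM and remained lower at -0.90 in log2.

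Cell cycle regulators split by member. CDK4, the kinase that starts phosphorylation of the retinoblastoma protein, was measured at 148, 161 and 164 CPM in EV and 12.8, 46.1 and 24.1 CPM in NICD4 (log2 change -2.70 ± 0.39, adjusted p = 1.5e-05). Its partner CCND2 had 2.77, 2.44 and 2.91 CPM in EV and no NICD4 read (at least 32.8-fold lower), while CCND3 rose from 51.3 ± 3.17 to 148 ± 26.98 CPM. RB1 fell from 16.6 ± 1.36 to 3.65 ± 0.399 CPM. For p53 target genes 10 of 34 tested members (29.4%) rose and 19 (55.9%) fell, beside 37.3% and 43.6% of all genes. The median log2 change was -0.66, or -0.45 with the GC trend removed. The death receptor FAS and the growth arrest protein GADD45A fell from 10.9 ± 1.26 to 1.98 ± 1.17 CPM and from 67.4 ± 3.63 to 12.7 ± 4.16 CPM, and MDM2, the ubiquitin ligase that restrains p53, fell from 112 ± 4.52 to 41.9 ± 11.1 CPM. FDXR, an electron donor of mitochondrial P450 enzymes, and PHLDA3, an inhibitor of AKT, rose from 89.4 ± 13.9 to 304 ± 80.3 CPM and from 47.5 ± 6.396 to 147 ± 16.2 CPM. In the BCL2 family 9 of 17 tested members (52.9%) rose and 5 (29.4%) fell, and the median log2 change was 0.49, or 0.17 with the GC trend removed. The pro-apoptotic BAD and BIK rose from 27.4 ± 6.103 to 125 ± 34.4 CPM and from 28.97 ± 4.196 to 107 ± 29.1 CPM, and the pro-apoptotic BBC3 fell from 22.8 ± 1.77 to 9.37 ± 2.34 CPM.

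Of 33 tested DNA methylation and polycomb genes 17 (51.5%) fell and 9 rose, beside 43.6% lower and 37.3% higher over all genes, and the median log2 change was -0.65, or -0.36 with the GC trend removed. RBBP4, a histone-binding subunit shared by several complexes, was measured at 26.1, 70.5 and 52.6 CPM in EV and 3.35, 3.59 and 2.43 CPM in NICD4. DNMT1, the maintenance DNA methyltransferase, fell from 147 ± 20.7 to 59.9 ± 12.8 CPM, BMI1 from 57.96 ± 5.89 to 14.3 ± 3.44 CPM and EZH2, the methyltransferase of histone H3 lysine 27, from 105 ± 4.13 to 51.8 ± 8.11 CPM. MBD3, of the NuRD complex, rose from 129 ± 15.4 to 415 ± 149.5 CPM. Of 14 tested clustered or related histone genes 10 rose and 1 fell, and the rises included the linker histone gene H1-2, from 3.98 ± 1.16 to 17.5 ± 4.17 CPM, and H2BC5, from 2.75 ± 0.391 to 10.9 ± 1.35 CPM, with a median of 1.16 that became 0.34 with the GC trend removed.

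Genes of sterol synthesis were lower more often than higher, as were all tested genes, and several enzymes of the mevalonate pathway fell. HMGCS1, which makes HMG-CoA, was measured at 72.6, 109.7 and 99.5 CPM in EV and 12.2, 10.96 and 10.9 CPM in NICD4 (log2 change -3.02 ± 0.19, adjusted p = 5.3e-09). ACAT2, which supplies acetoacetyl-CoA, was measured at 115, 130.0 and 130.2 and 11.03, 26.4 and 16.8 CPM in the same order (log2 change -2.87 ± 0.26, adjusted p = 1.8e-07). The groups did not overlap for either. IDI1 and FDPS, which build isoprenoid chains, fell from 163 ± 3.54 to 49.1 ± 10.3 CPM and from 85.3 ± 3.803 to 24.2 ± 11.03 CPM, and the sterol carrier STARD4 fell from 42.4 ± 7.11 to 7.195 ± 1.88 CPM. SREBF2, the transcription factor that induces these genes when sterols are low, fell from 131 ± 6.71 to 67.7 ± 0.897 CPM. Over the list 9 of 29 tested members rose and 16 fell, beside 37.3% and 43.6% of all genes. The median log2 change was -0.48 beside -0.12 over all genes, or -0.64 with the GC trend removed. The mevalonate enzymes PMVK and MVD rose from 57.5 ± 11.8 to 176 ± 47.4 CPM and from 206 ± 32.3 to 579 ± 178 CPM, though MVD came to 0.30 in log2 with the GC trend removed. ABCG1, which exports cholesterol, rose from 0.214 ± 0.0249 to 0.921 ± 0.214 CPM. Among fatty acid genes, of which 14 of 35 rose and 17 fell, the adipogenic receptor PPARG rose from 0.557 ± 0.226 to 4.596 ± 1.68 CPM and the acyl-CoA synthetase ACSL5 fell from 7.54 ± 0.322 to 0.851 ± 0.219 CPM.

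Metal, redox and oxygen genes also moved apart from each other. All 4 tested metallothioneins, small cysteine-rich proteins that bind zinc and copper, rose, with a median of 2.34 and of 1.98 with the GC trend removed. MT2A was measured at 92.6, 60.3 and 68.6 CPM in EV and 469.8, 349.5 and 377 CPM in NICD4 (log2 change 2.44 ± 0.20, adjusted p = 7e-08), and MT1X, MT1F and MT1E rose from 7.23 ± 2.14 to 33.5 ± 1.86 CPM, from 1.49 ± 0.329 to 10.8 ± 1.26 CPM and from 96.2 ± 20.8 to 259 ± 7.04 CPM. Metallothionein genes are near copies of each other, so reads could be split between them. NFE2L2, which encodes NRF2, the main transcription factor of the antioxidant response, was measured at 44.3, 64.9 and 61.04 CPM in EV and 5.88, 12.3 and 7.78 CPM in NICD4 (log2 change -2.75 ± 0.31, adjusted p = 1.5e-06). The ferritin chains went in opposite directions, FTL, the light chain, up from 1042 ± 176 to 2679 ± 53.8 CPM and FTH1, the heavy chain, down from 89.2 ± 4.62 to 38.8 ± 21.6 CPM. Both have many processed pseudogenes. GSTP1, a glutathione transferase, rose from 719 ± 148 to 2868 ± 429 CPM and PRDX3, the mitochondrial peroxiredoxin, fell from 317 ± 38.9 to 67.5 ± 29.1 CPM, in a list of 36 of which 19 rose and 12 fell. These shares, 52.8% and 33.3%, stand beside 37.3% and 43.6% of all genes.

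HIF1A, the oxygen-regulated transcription factor subunit, was measured at 35.2, 48.8 and 44.6 CPM in EV and 5.33, 8.61 and 6.23 CPM in NICD4 (log2 change -2.68 ± 0.23, adjusted p = 1e-07). Glycolytic and hypoxia genes as a list did not lean to either side, with 16 of 41 up and 17 down. LDHA, lactate dehydrogenase, and PGK1, phosphoglycerate kinase, fell from 787 ± 20.4 to 331 ± 98.2 CPM and from 479 ± 25.9 to 204 ± 44.3 CPM, and PFKL, the liver phosphofructokinase, rose from 60.1 ± 2.44 to 295 ± 72.1 CPM. GAPDH, often used as a reference gene, was measured at 5681, 4464 and 4793 CPM in EV and 8623, 8327 and 8465 CPM in NICD4. Its log2 change of 0.77 ± 0.10 became -0.01 with the GC trend removed. For lysosome and V-ATPase genes 28 of 53 tested members (52.8%) rose and 10 (18.9%) fell, beside 37.3% and 43.6% of all genes. The median log2 change was 0.33, 0.41 with the GC trend removed and -0.22 under scaling to the read total alone. TFEB, the transcription factor of lysosome formation, rose from 1.51 ± 0.0847 to 13.5 ± 2.44 CPM and the protease CTSD from 81.5 ± 18.5 to 392 ± 117 CPM, and NPC1, which exports cholesterol from lysosomes, fell from 11.3 ± 2.38 to 2.89 ± 0.256 CPM.

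**Figure D4:**
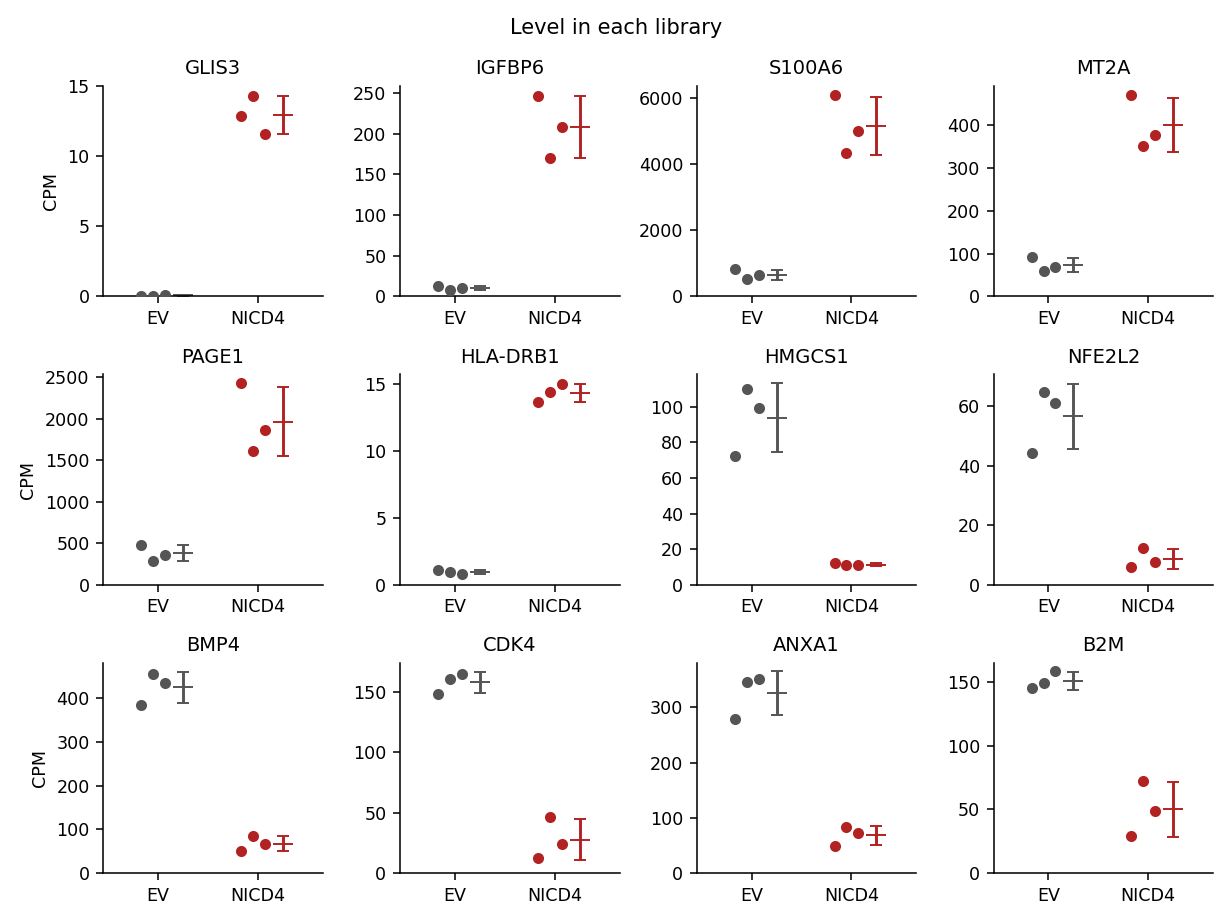
Level in CPM (linear axes from 0) of 12 genes in the 3 EV and 3 NICD4 libraries, with 1 point per library and the mean ± SD beside the points. In every panel the NICD4 points lie wholly above or wholly below the EV points; the NICD4 libraries of B2M differ among themselves, from 29.4 to 72.2 CPM.

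Several calcium-binding S100 proteins rose, and several annexins, to which some of them bind, fell. S100A6 was measured at 827, 523 and 638 CPM in EV and 6102, 4357 and 5021 CPM in NICD4 (log2 change 2.97 ± 0.20, adjusted p = 1e-08). S100A2, a p63-regulated epithelial member, and S100A5 rose from 56.2 ± 12.8 to 685 ± 181 CPM and from 1.43 ± 0.187 to 23.8 ± 4.52 CPM, whereas S100A14 fell from 10.98 ± 2.06 to 3.11 ± 0.876 CPM. ANXA1, annexin A1, was measured at 279.5, 346 and 351 CPM in EV and 50.2, 84.4 and 72.4 CPM in NICD4, and ANXA3 and ANXA5 fell from 107 ± 9.56 to 42.6 ± 14.9 CPM and from 204 ± 11.7 to 85.7 ± 11.2 CPM. Of all 21 tested members of both families 10 (47.6%) rose and 7 (33.3%) fell, beside 37.3% and 43.6% of all genes. The median log2 change was 0.115, or -0.124 with the GC trend removed.

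Matrix genes did not move as a set, with 8 of 26 collagens up and 12 down and 11 of 30 matrix glycoproteins up and 12 down. COL6A2, a chain of the beaded filament collagen VI, was measured at 91.5, 93.3 and 88.2 CPM in EV and 339.8, 215 and 266 CPM in NICD4, and its partner COL6A1 at 84.8, 90.4 and 80.3 and 186, 155 and 171 CPM. With the GC trend removed their log2 changes of 1.56 and 1.00 became 0.21 and -0.15. COL9A3, a cartilage collagen chain, fell from 24.2 ± 1.15 to 4.47 ± 1.58 CPM and EFEMP2, an elastic fibre protein, from 17.5 ± 1.72 to 0.887 ± 0.0962 CPM, and both fell further with that correction (-3.90 and -4.67). COL3A1, at 5.21, 6.33 and 4.56 CPM in EV, had 1 read in NICD4, 199.9-fold (95% exact counting interval 35.7 to 7912) lower. LTBP3, which anchors latent TGF-beta, rose from 66.3 ± 11.5 to 512 ± 129.5 CPM.

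For matrix proteases and their inhibitors 19 of 29 tested members (65.5%) rose and 8 (27.6%) fell, beside 37.3% and 43.6% of all genes. The median log2 change was 1.06, or 0.49 with the GC trend removed. The inhibitor TIMP1 was measured at 139.7, 89.5 and 99.8 CPM in EV and 454, 287 and 355 CPM in NICD4, the membrane protease MMP15 rose from 29.97 ± 2.87 to 148 ± 25.8 CPM, and the plasminogen activator PLAT fell from 11.6 ± 1.86 to 1.95 ± 1.195 CPM. Of 33 contractile and actin-binding genes 11 rose and 16 fell, with MYL9, a smooth muscle myosin light chain, down from 56.1 ± 1.34 to 12.04 ± 6.39 CPM, and MYH14, a nonmuscle myosin heavy chain, and the tropomyosin TPM2 up from 40.7 ± 2.72 to 342 ± 149.6 CPM and from 595 ± 118 to 2469 ± 600.3 CPM. TFF2, a trefoil peptide of mucous cells, fell from 4.83 ± 1.04 to 0.0626 ± 0.0543 CPM. It belongs to a list of intestinal secretory genes of which 2 of 11 tested (18.2%) rose and 7 (63.6%) fell, beside 37.3% and 43.6% of all genes. The 24 members in the file summed to 73.2 to 75.1 CPM in EV and 33.9 to 37.1 CPM in NICD4. The largest rise in the list was 1.72 in log2, so it leaves out the hormone genes PYY and GCG, which rose by 4.81 and 5.12.

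Among signalling genes, 57.7% of those tested for TGF-beta and BMP were lower and 23.1% higher, beside 43.6% and 37.3% of all genes. BMP4, a secreted ligand, was measured at 384, 454 and 434 CPM in EV and 50.5, 84.8 and 66.8 CPM in NICD4 (log2 change -2.68 ± 0.18, adjusted p = 1.1e-08). The type II receptor TGFBR2 was measured at 8.39, 9.98 and 10.2 and 0.181, 0.848 and 0.584 CPM (log2 change -4.21 ± 0.41, adjusted p = 3.5e-07), and the type I receptor ACVR1 fell from 10.1 ± 0.679 to 2.19 ± 0.153 CPM. Over the list 6 of 26 tested members rose and 15 fell, and the median log2 change was -0.50, or -0.43 with the GC trend removed. For YAP and TEAD genes 7 of 25 tested members rose and 16 fell, and the median log2 change was -0.65, or -0.83 with the GC trend removed. CCN1, a secreted YAP target, fell from 246 ± 4.298 to 104 ± 8.45 CPM and the LIM protein AJUBA from 30.4 ± 2.095 to 10.2 ± 1.65 CPM, whereas the kinase NUAK2 and the transcription factor TEAD4 rose from 2.68 ± 0.0977 to 14.4 ± 0.981 CPM and from 54.3 ± 8.59 to 116 ± 20.4 CPM. For immediate early transcription factors 5 of 24 tested members (20.8%) rose and 14 (58.3%) fell, and the median log2 change was -0.51, or -1.07 with the GC trend removed.

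Of 27 tested growth factor and receptor genes outside the EGF family 13 rose and 12 fell. IGFBP6, which binds IGF2, was measured at 12.6, 8.59 and 9.92 CPM in EV and 247, 170.4 and 209 CPM in NICD4 (log2 change 4.33 ± 0.17, adjusted p = 1e-10). FGF9, a secreted growth factor, and its receptor FGFR3 rose from 0.2296 ± 0.0779 to 3.23 ± 0.376 CPM and from 17.9 ± 1.13 to 59.3 ± 19.3 CPM. The receptors MET and EGFR fell from 45.6 ± 1.77 to 17.8 ± 2.51 CPM and from 12.6 ± 1.57 to 6.14 ± 2.503 CPM, the EGF-family ligand EREG fell from 3.28 ± 0.1995 to 0.182 ± 0.08597 CPM, and the ERK pathway inhibitor SPRY4 fell from 59.2 ± 4.56 to 17.4 ± 4.89 CPM. Of the EGF family list 5 of 12 tested members rose and 6 fell, and of the ERK feedback list 9 of 18 rose and 8 fell. For ephrins and Eph receptors 12 of 15 tested members (80.0%) rose and 3 (20.0%) fell, beside 37.3% and 43.6% of all genes. The median log2 change was 1.02, or 0.19 with the GC trend removed. EPHB3 and EFNA3 rose from 1.58 ± 0.537 to 10.0 ± 0.516 CPM and from 5.51 ± 1.31 to 31.4 ± 8.08 CPM, and EFNB3 fell from 3.08 ± 0.439 to 0.193 ± 0.101 CPM. Of 26 tested semaphorins, plexins and neuropilins 10 rose and 10 fell, or 5 and 17 with the GC trend removed. The median log2 change was -0.03, or -0.75 with that trend removed. SEMA6B rose from 18.6 ± 0.701 to 88.2 ± 12.97 CPM and PLXNA2 from 0.222 ± 0.109 to 1.14 ± 0.1499 CPM.

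More antigen presentation genes rose than fell. For MHC class I and peptide processing 13 of 21 tested members (61.9%) rose and 4 (19.0%) fell, beside 37.3% and 43.6% of all genes. The median log2 change was 0.78, or 0.40 with the GC trend removed. The heavy chain HLA-C rose from 166 ± 16.1 to 496 ± 16.9 CPM, and PSMB10, an immunoproteasome subunit, from 58.9 ± 18.99 to 298 ± 80.1 CPM. B2M, the light chain that every class I molecule needs, was measured at 145, 149 and 158 CPM in EV and 29.4, 72.2 and 48.8 CPM in NICD4 (log2 change -1.68 ± 0.25, adjusted p = 2.1e-05). For MHC class II genes 9 of 12 tested members rose and 2 fell, and the median log2 change was 1.20, or 0.82 with the GC trend removed. CIITA, the class II transactivator, rose from 0.253 ± 0.0651 to 1.24 ± 0.487 CPM, HLA-DRB1 was measured at 1.13, 0.927 and 0.805 and 13.7, 14.4 and 14.98 CPM, and CD74, the invariant chain, fell from 1.92 ± 0.146 to 0.485 ± 0.0833 CPM. HLA genes are close relatives of each other, and reads may be assigned to the wrong member.

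Interferon-stimulated genes were even, with 11 of 32 up and 12 down. ISG15, a ubiquitin-like protein, was measured at 146, 94.1 and 103 CPM in EV and 1027, 608 and 736 CPM in NICD4, while BST2, which tethers viruses, fell from 25.2 ± 4.21 to 3.93 ± 0.981 CPM. In the NF-kB list NFKB1 and its inhibitor NFKBIA fell from 33.02 ± 5.34 to 10.2 ± 2.97 CPM and from 49.3 ± 2.45 to 17.99 ± 4.99 CPM, and the adaptor TRAF2 rose from 39.1 ± 4.94 to 99.1 ± 20.8 CPM. For complement and coagulation genes 11 of 18 tested members (61.1%) rose and 6 (33.3%) fell, beside 37.3% and 43.6% of all genes. The median log2 change was 0.77, or 0.24 with the GC trend removed. Coagulation factor XII, F12, was measured at 17.3, 11.9 and 13.99 CPM in EV and 218, 122 and 153 CPM in NICD4, complement component C2 rose from 0.0843 ± 0.0355 to 1.23 ± 0.284 CPM and clusterin, CLU, from 133 ± 11.9 to 449 ± 71.8 CPM, and tissue factor, F3, fell from 54.99 ± 9.22 to 14.6 ± 4.16 CPM.

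NICD4 was next set against the mean of NICD1, NICD2 and NICD3. The EV mean takes no part in this difference, but the EV libraries entered the filter, the scaling and the fit of the spread. With only the 12 NICD libraries scaled and fitted, 4166 genes were higher and 4422 lower. The values that follow are from the fit of all 15 libraries. NICD4 was higher for 4221 genes (27.9%) and lower for 4661 (30.8%), and by at least 2-fold for 757 (5.01%) and 627 (4.15%). The GC gradient was present here as well, with a median of -0.35 in the lowest bin of GC content and 0.51 in the highest. Without NICD4 replicate 1, the library with the discordant source field, 3061 genes were higher and 3446 lower.

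The 10 largest differences upwards with no overlap between the 3 NICD4 and the 9 other libraries included genes that NICD4 left nearer to EV. TMEM132D-AS1, an antisense RNA, was at 84.7, 60.3 and 71.5 CPM in EV, 108, 91.5 and 97.9 CPM in NICD4 and means of 0.639 ± 0.223, 5.09 ± 0.815 and 9.61 ± 1.56 CPM in NICD1, NICD2 and NICD3 (log2 difference from their mean 4.95 ± 0.16). FGF13, an intracellular partner of sodium channels, was at 6.42, 7.31 and 8.17 CPM in NICD4 and means of 0.0229 ± 0.0397, 1.17 ± 0.174 and 4.798 ± 0.439 CPM in NICD1, NICD2 and NICD3, beside 11.7, 14.7 and 13.6 CPM in EV. Its log2 change against EV of -0.86 became -0.09 with the GC trend removed and lost its call (limma adjusted p = 0.74). QPRT, an enzyme of NAD synthesis, was at 7.96, 6.46 and 6.03 CPM in NICD4, at most 1.49 ± 0.307 CPM as the mean of another NICD group and 19.4, 18.5 and 18.8 CPM in EV. Others were above EV in NICD4 as well. PCBP3, an RNA-binding protein at 2.86, 2.19 and 2.03 CPM in EV, reached 52.9, 24.1 and 32.5 CPM against means of 6.696 ± 2.12, 1.897 ± 0.337 and 4.44 ± 1.36 CPM (3.19 ± 0.23). PAGE1 differed by 2.76 ± 0.17, but its mean was 22.9 ± 3.31 CPM in NICD1 and 1054 ± 166 CPM in NICD3. ATP5F1EP2, KRT5, APOA1, RGS9, a regulator of G-protein signalling, and TRIM29, a ubiquitin ligase of epithelia, differed by 3.30 ± 0.21, 2.40 ± 0.23, 2.27 ± 0.30, 2.26 ± 0.20 and 2.20 ± 0.24. KRT5 was at means of 0.361 ± 0.0454, 0.914 ± 0.5002 and 5.04 ± 0.183 CPM in NICD1, NICD2 and NICD3, of which NICD3 lay closest to the 7.42, 6.59 and 5.55 CPM of NICD4.

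In the other direction, NLRP4, a germline member of the NLR family, was at 1.27, 0.979 and 1.46 CPM in NICD4 against means of 8.204 ± 0.329, 28.4 ± 1.04 and 25.97 ± 2.02 CPM (-3.84 ± 0.10) and 10.9, 9.51 and 9.92 CPM in EV. MAP7D3, a microtubule-associated protein, was at 5.97, 4.502 and 5.35 CPM in NICD4, 31.1 ± 1.399, 32.7 ± 2.302 and 25.1 ± 0.298 CPM in the other groups and 25.9, 23.9 and 24.8 CPM in EV. For both genes the 3 NICD4 libraries lay below all 12 others. ACAT2 and FTH1, described above, were lower in NICD4 than in the other NICD groups by 1.95 ± 0.21 and 2.02 ± 0.27 in log2, and their 3 NICD4 libraries spread more than 2-fold. RIMS2, a presynaptic scaffold, was at 0.452, 0.261 and 0.876 CPM in NICD4 and 4.43 ± 0.491, 9.89 ± 1.27 and 13.2 ± 1.02 CPM in NICD1, NICD2 and NICD3, which rose from 0.317, 0.216 and 0.153 CPM in EV. The remaining members, EMP1, S100A14, AADACP1, HTR7 and FGFBP1, differed by -2.50 ± 0.43, -2.49 ± 0.16, -1.97 ± 0.19, -1.96 ± 0.18 and -1.88 ± 0.06.

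**Figure D5:**
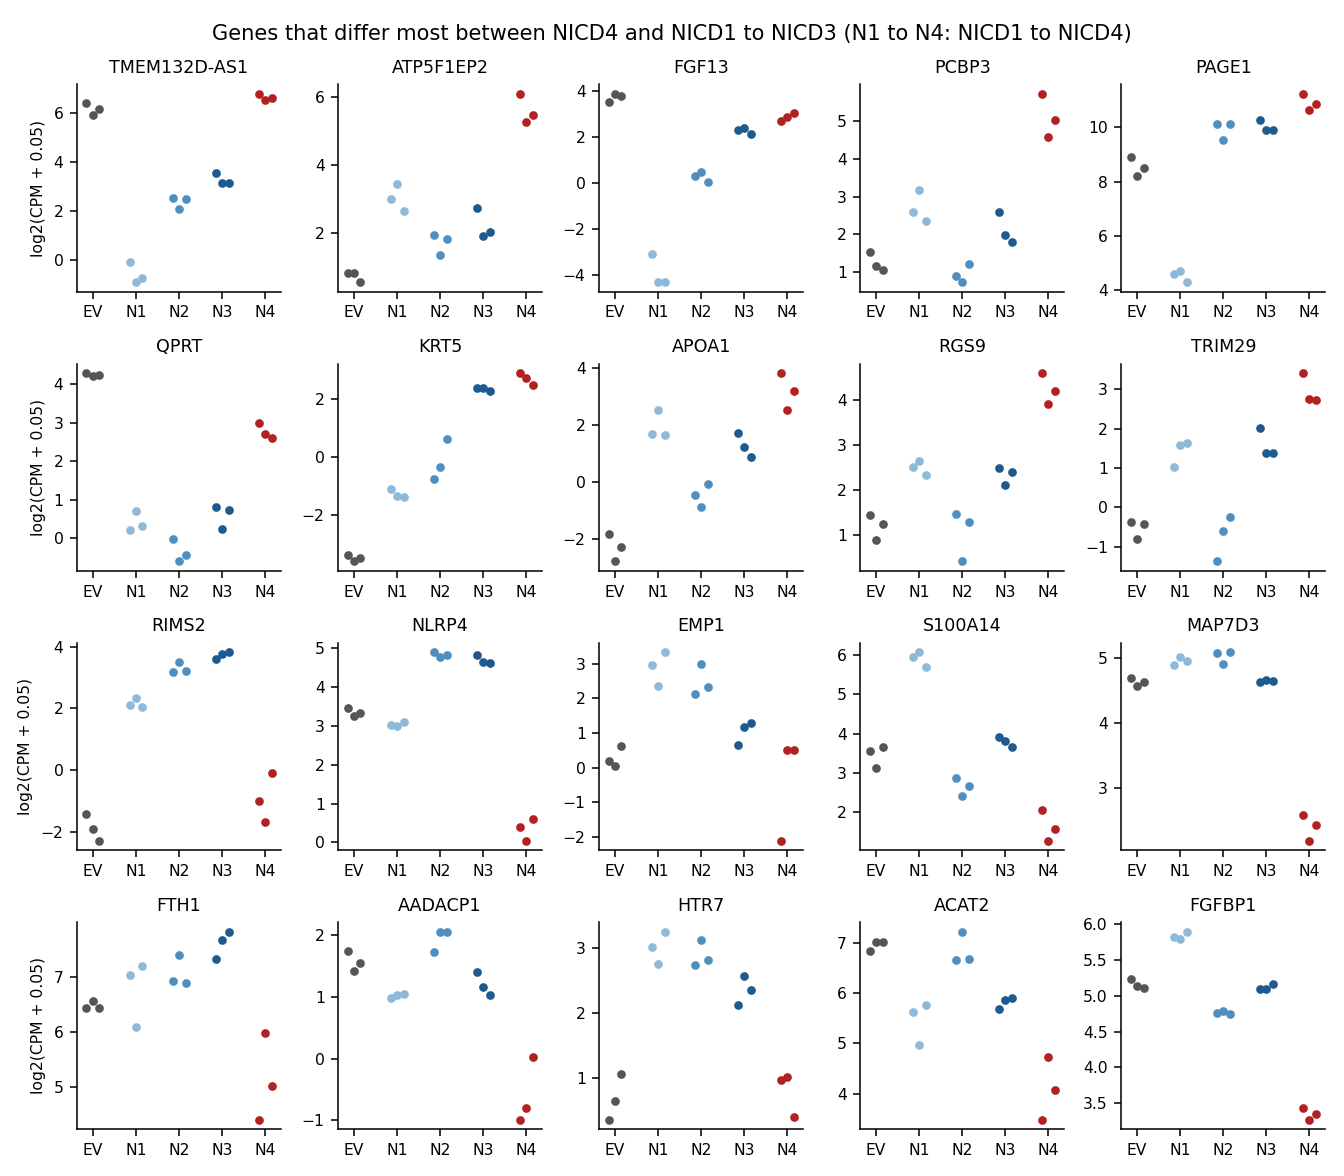
Level in each library (log2 of CPM + 0.05) of the 10 genes most above and the 10 most below the mean of NICD1 to NICD3 in NICD4, with 1 point per library and 3 per group. NICD4 points (red) lie outside the range of the 9 blue points in every panel, and EV points (grey) lie on either side.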

How the data were processed

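RNA-seq libraries were made with a TruSeq RNA v2 kit, per the labels' protocols. The authors deposited 1 table of log2 values per gene and library. Reversing log2(reads + 1) gave whole numbers for 100% of values within 0.001, so the table was taken to hold unscaled reads. TopHat, TopHat2 (2.0.6), HTSeq and GRCh37 are named per the submitters' processing notes, and strand setting and annotation release are not given in the sources used here. Reads were scaled by trimmed means of M values (30% and 5% trims), and 1 was added before log2. Genes that reached 0.548 CPM (10 reads in a library of median size) in 3 libraries and 15 reads in total were tested with limma 3.58.1 (statmod 1.5.0, R 4.3.3), trended and robust, over all 15 libraries with 1 mean per group, and p-values were adjusted by Benjamini-Hochberg. The GC trend was a robust spline (5 degrees of freedom) on the longest GENCODE 29 transcript. The fit was tried on simulated reads with 200 changed genes, a dispersion of 0.02 and no trend with GC content or length. It called 35.4% of 1.5-fold, 81.25% of 2-fold and 96.9% of 4-fold changes, and 0.11% of unchanged genes. With so few changed genes the simulation cannot test the scaling of these data, in which 80.9% of genes were called. Of the 31352 identifiers 6067 had no symbol.

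Genes were named where they were called, had a mean log2 CPM of at least 1 and groups that did not overlap, and ranked among the first 20 by size of change in either direction. Also named were the 10 largest in each direction against NICD1 to NICD3 by the same rule over 9 libraries, the on and off genes, and list members, of which examples are given. Members and lists were chosen with earlier results of these data known. Exact intervals and the floor of 3 reads per group cover counting error only.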

Additional observations from a re-analysis of the deposited data

Results flagged for a closer look

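The level in NICD4 differed from the mean of NICD1 to NICD3 by a test of that difference (limma). It does not test a difference from each domain, since 1 group can carry the mean. S100A14, for example, had means of 60.3, 6.24 and 13.8 CPM in NICD1, NICD2 and NICD3 and 3.11 CPM in NICD4. NICD4 was at least 2-fold higher for 757 called genes and at least 2-fold lower for 627. At any size, 4221 genes were called higher and 4661 lower, or 3004 and 4586 with the GC trend removed. The largest log2 differences upwards were 4.95 for TMEM132D-AS1, 3.30 for ATP5F1EP2, 3.29 for FGF13, 3.19 for PCBP3, 2.76 for PAGE1, 2.55 for QPRT, 2.40 for KRT5, 2.27 for APOA1, 2.26 for RGS9 and 2.20 for TRIM29. The largest downwards were -3.98 for RIMS2, -3.84 for NLRP4, -2.50 for EMP1, -2.49 for S100A14, -2.48 for MAP7D3, -2.02 for FTH1, -1.97 for AADACP1, -1.96 for HTR7, -1.95 for ACAT2 and -1.88 for FGFBP1. All 20 had their 3 NICD4 libraries outside the range of the 9 others, which is part of how they were chosen. Groups of 3 libraries are too small for a search for outlying libraries.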

How the results depend on the processing

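Of the counts of calls, the following moved by more than 1.5 times. Scaling to the read total alone gave 3647 genes higher (5644 as reported), 1750 at least 2-fold higher (3144) and 5937 at least 2-fold lower (3497). Removing the GC trend gave 1957 at least 2-fold higher, and 1957 with the replicate block as well. Among the 5644 genes called higher, 588 were called lower with the GC trend removed, and 387 of those called lower were called higher. Among the genes named in the text, those whose direction turned with the GC trend removed, with or without the replicate block, were NOTCH4 (0.28 to -0.73), GAPDH (0.77 to -0.007) and COL6A1 (1.00 to -0.15), and the cause was not tested. MT-ATP8 lost its call with the GC trend removed (log2 change -0.29), as did MT-ND3 and MT-ND6 under the read total (0.08 and 0.32). RPS23 lost its call with both the GC trend removed and the replicate block (-0.32). Leaving out each EV or NICD4 library in turn gave 5417 to 5618 genes higher and 6186 to 6582 lower. For NICD4 against NICD1 to NICD3, leaving out each library in turn gave 3061 to 4332 higher and 3446 to 4860 lower, the lowest of both without NICD4 replicate 1. The fits that leave out a NICD1, NICD2 or NICD3 library were chosen after seeing the data. With the replicate block NICD4 was higher than EV for 5617 genes and lower for 6569. The numbers were not taken to pair libraries, since deviations of same-numbered EV and NICD4 libraries correlated at 0.24, 0.18 and 0.01. The NICD4 libraries held fewer reads than the EV libraries, so a gene at 0 reads in NICD4 is bounded less tightly.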
